A study of Saccharomyces cerevisiae with 6 samples.

Results

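Ergosterol is the main sterol of yeast membranes, where it sets fluidity and permeability much as cholesterol does in animal cells. Its synthesis starts from acetyl-CoA, runs through mevalonate, farnesyl diphosphate and squalene to lanosterol, and ends with a late branch in the endoplasmic reticulum that reshapes lanosterol into ergosterol. Several late steps depend on molecular oxygen, heme or iron, and the genes are known targets of the sterol-sensing activators Upc2 and Ecm22. The late branch was followed here through 10 genes, ERG24, ERG25, ERG26, ERG27, ERG28, ERG6, ERG2, ERG3, ERG5 and ERG4, given in the order of the pathway. They were chosen by name, through the gene symbols of the platform annotation, out of 5449 genes tested, with earlier results of these data known. Each of the 10 had a single probe set, 0 of these were of the kind that cross-hybridises with related genes, and all 10 lay above background on every array.

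The samples were Saccharomyces cerevisiae cultures of the CEN.PK113-7D background, all grown on minimal glucose medium in fermenters at pH 5.0 and harvested in mid exponential phase. Strains 62B (2 arrays), 62C (1 array) and 62A (1 array) had been adaptively evolved on galactose, and the reference strain (2 arrays) was the unevolved wild type. Each evolved group is 1 strain, and no label tells whether its arrays are separate cultures. A p-value below reflects the scatter of these arrays alone, and that scatter may be technical. The comparison asks how strains evolved on galactose express these genes on glucose.

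Levels are log2 expression values made by the authors with RMA, which corrects background, normalizes arrays to each other and summarises the probes of a gene. A difference of 1 is a 2-fold difference, and levels of different genes are not comparable because their probes differ. Array values give the share of a message in the RNA of a culture, so fewer expressing cells and less RNA per cell cannot be told apart. Changes were tested with limma, with each strain as a term and all 6 arrays fitted together, and Benjamini-Hochberg adjustment over all 5449 genes and a threshold of 0.05. "Rose" and "fell" are used only for changes past it, and errors written ± are standard errors of the fit. Since 62C and 62A had 1 array each, they were assumed to vary like the 62B and reference pairs. Median levels of all tested genes lay between 7.30 and 7.34 on every array. All 7 a-specific mating genes were above background (5.07) on all arrays. Of the 5 alpha-specific genes 4 were above it on the first 62B array and 5 on every other array. Medians of the alpha-specific genes were 5.11 and 5.14 in 62B, 5.76 in 62C, 5.68 in 62A, and 5.90 and 5.94 in the reference.

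The late ergosterol genes were high in 62B and low in 62C and 62A. Against the reference, 8 of 10 rose in 62B (median log2 change 0.41), all 10 fell in 62C (median −0.45) and 9 of 10 fell in 62A (median −0.34). The share of all tested genes that rose in 62B was 20.1%, the share that fell in 62C was 23.3% and the share that fell in 62A was 14.9%. The median change of all tested genes was −0.01 in 62B, −0.04 in 62C and −0.04 in 62A. The 3 comparisons share the 2 reference arrays. ERG3 changed most of the 10 in 62B, to 1.78-fold the reference level, and in 62C, to 0.703 of it, while ERG6 fell most in 62A, to 0.712 of it.

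ERG24 encodes the sterol reductase that acts right after the lanosterol demethylase Erg11. Its log2 level was 10.20 and 10.17 in 62B, 9.20 in 62C, 9.34 in 62A, and 9.66 on both reference arrays. The groups did not overlap: both 62B arrays lay above the reference, and 62C and 62A below it. ERG24 rose in 62B (log2 change 0.52 ± 0.05, limma adjusted p = 3.74e-05) and fell in 62C (−0.46 ± 0.06, limma adjusted p = 0.000279) and in 62A (−0.32 ± 0.06, limma adjusted p = 0.00378).

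Removal of the paired methyl groups at carbon 4 is carried out by a complex of 4 members. They are the iron-dependent methyl oxidase Erg25, the dehydrogenase and decarboxylase Erg26, the keto reductase Erg27 and the scaffold Erg28 holding them at the membrane. Their messages did not change alike in 62B. ERG25 measured 11.83 and 11.71 in 62B, 11.01 in 62C, 11.13 in 62A, and 11.34 and 11.36 in the reference. ERG28 measured 10.62 and 10.64 in 62B, 9.79 in 62C, 9.76 in 62A, and 10.26 and 10.21 in the reference. For both genes the 62B arrays lay above both reference arrays, and they rose in 62B by 0.42 ± 0.05 and 0.40 ± 0.05 (limma adjusted p = 0.000370 and 0.000213).

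ERG26 measured 9.02 and 8.95 in 62B, 8.53 in 62C, 8.60 in 62A, and 8.92 and 8.99 in the reference. ERG27 measured 8.86 on both 62B arrays, 8.40 in 62C, 8.52 in 62A, and 8.78 and 8.90 in the reference. Here 62B overlapped the reference for both genes, while 62C and 62A lay below it. The log2 change in 62B was 0.03 for ERG26 (95% interval −0.08 to 0.14, limma adjusted p = 0.679) and 0.02 for ERG27 (95% interval −0.10 to 0.14, limma adjusted p = 0.776). All 4 genes of the complex fell in 62C, by 0.34 (ERG25), 0.42 (ERG26), 0.43 (ERG27) and 0.44 (ERG28) on the log2 scale. All 4 also fell in 62A, with ERG28 at −0.47 ± 0.06 and ERG25 at −0.23 ± 0.07 as the ends of their range. The fall of ERG25 in 62A passed narrowly (limma adjusted p = 0.0366) and missed the threshold without either 62B array (limma adjusted p = 0.065 in both cases), where the spread rests on the reference pair alone.

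ERG6 encodes the methyltransferase that adds a side-chain methyl group that cholesterol lacks. It measured 10.45 and 10.49 in 62B, 9.75 in 62C, 9.73 in 62A, and 10.22 on both reference arrays. Both 62B arrays lay above the reference, and 62C and 62A below it, with the smallest rise in 62B among the 8 genes that rose (0.25 ± 0.05, limma adjusted p = 0.00301) and the largest fall of any member in 62A (−0.49 ± 0.06, limma adjusted p = 0.000463). Its change in 62C was −0.47 ± 0.06. Without the second 62B array the rise in 62B was 0.22 and missed the threshold (limma adjusted p = 0.0548).

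ERG2, the isomerase that moves the ring double bond, measured 11.78 and 11.75 in 62B, 10.85 in 62C, 11.06 in 62A, and 11.36 and 11.32 in the reference. It rose in 62B (0.43 ± 0.05) and fell in 62C (−0.48 ± 0.06) and 62A (−0.28 ± 0.06). ERG3, the desaturase that introduces the second ring double bond with electrons from cytochrome b5, measured 10.83 and 10.76 in 62B, 9.45 in 62C, 9.54 in 62A, and 9.99 and 9.93 in the reference. Its 62B arrays stood farther above the reference than those of any other member, and 62C and 62A lay below both reference arrays. The rise of ERG3 in 62B was 0.83 ± 0.05 (limma adjusted p = 4.34e-06), and its falls were −0.51 ± 0.06 in 62C (limma adjusted p = 0.000245) and −0.42 ± 0.06 in 62A (limma adjusted p = 0.00155).

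ERG5 encodes the side-chain desaturase, a cytochrome P450. Published work on these galactose-evolved strains reports a mutation in ERG5. Which strain carries it is not given here, and the arrays measure the amount of ERG5 RNA and not its sequence. ERG5 measured 10.41 and 10.33 in 62B, 9.56 in 62C, 9.66 in 62A, and 9.78 and 9.71 in the reference. It rose in 62B by 0.63 ± 0.05 (limma adjusted p = 2.58e-05), more than any other member but ERG3, and had the smallest changes of the 10 in the other strains. It was −0.18 ± 0.06 in 62C (limma adjusted p = 0.0494) and −0.09 ± 0.06 in 62A, which did not pass (95% interval −0.23 to 0.06, limma adjusted p = 0.352). The call in 62C was lost without the first reference array (limma adjusted p = 0.0745), without either 62B array (0.0981 in both cases), under quantile normalization (0.0678) and under median centring (0.0861).

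ERG4 encodes the reductase of the last step. It measured 10.71 and 10.60 in 62B, 9.79 in 62C, 9.92 in 62A, and 10.30 and 10.28 in the reference, without overlap between 62B and the reference. It rose in 62B by 0.37 ± 0.05 and fell in 62C (−0.50 ± 0.07) and 62A (−0.37 ± 0.07). Both 62B arrays were above both reference arrays for 8 of the 10 members, against 34.1% of all tested genes. The single 62C array was below both reference arrays for all 10, against 52.1% of tested genes, and the single 62A array likewise for all 10, against 51.7%. Within pairs, the members' arrays differed by 0.01 to 0.13 in 62B and by 0.0016 to 0.12 in the reference.

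**Figure D1:**
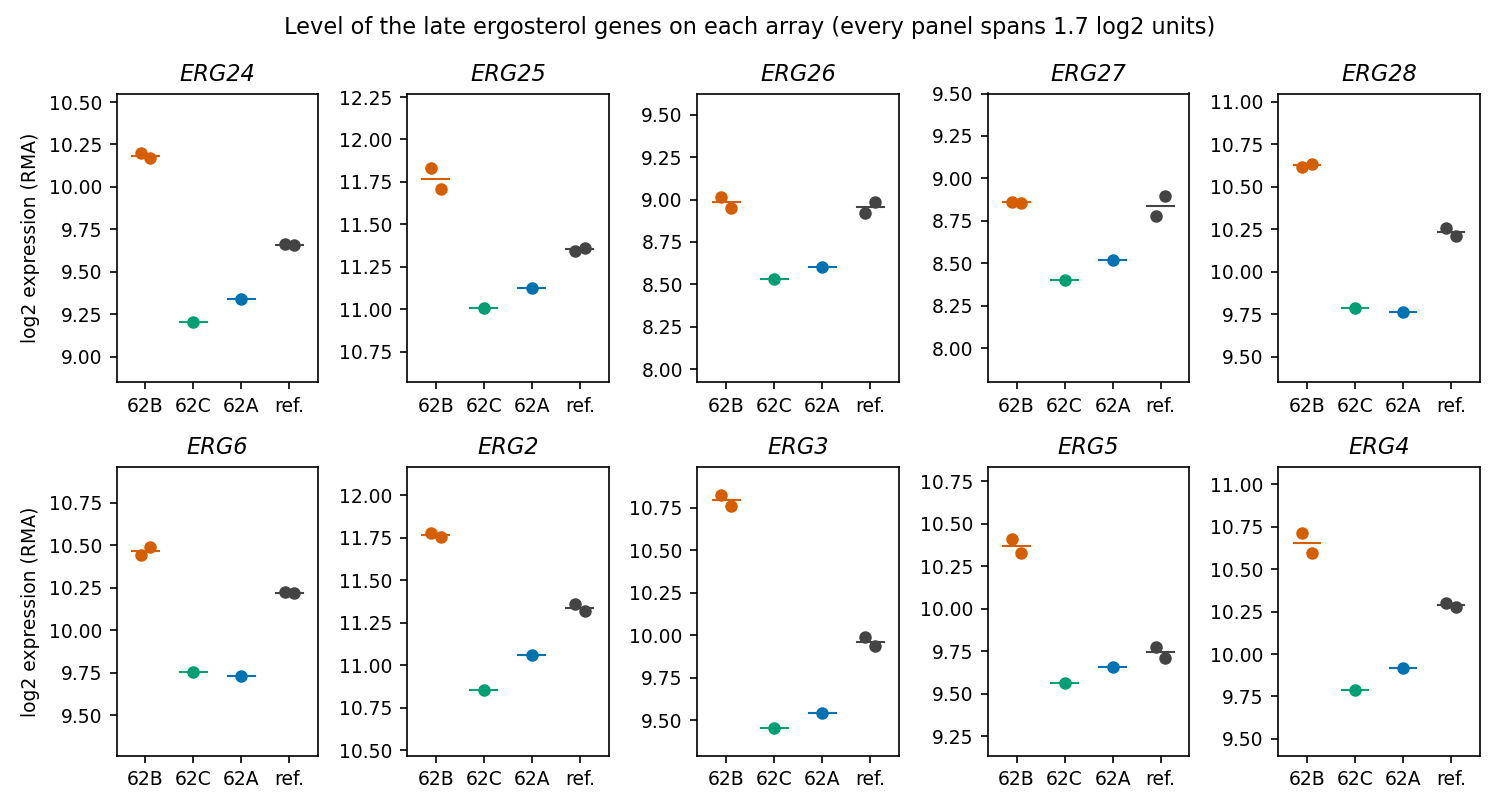
Log2 expression (RMA) of the 10 late ergosterol genes on each array, 1 panel per gene in pathway order. Points are arrays and short lines are strain means. The 62B points lie above both reference points in 8 panels and overlap them for ERG26 and ERG27, while the 62C and 62A points lie below the reference in all 10.

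**Figure D2:**
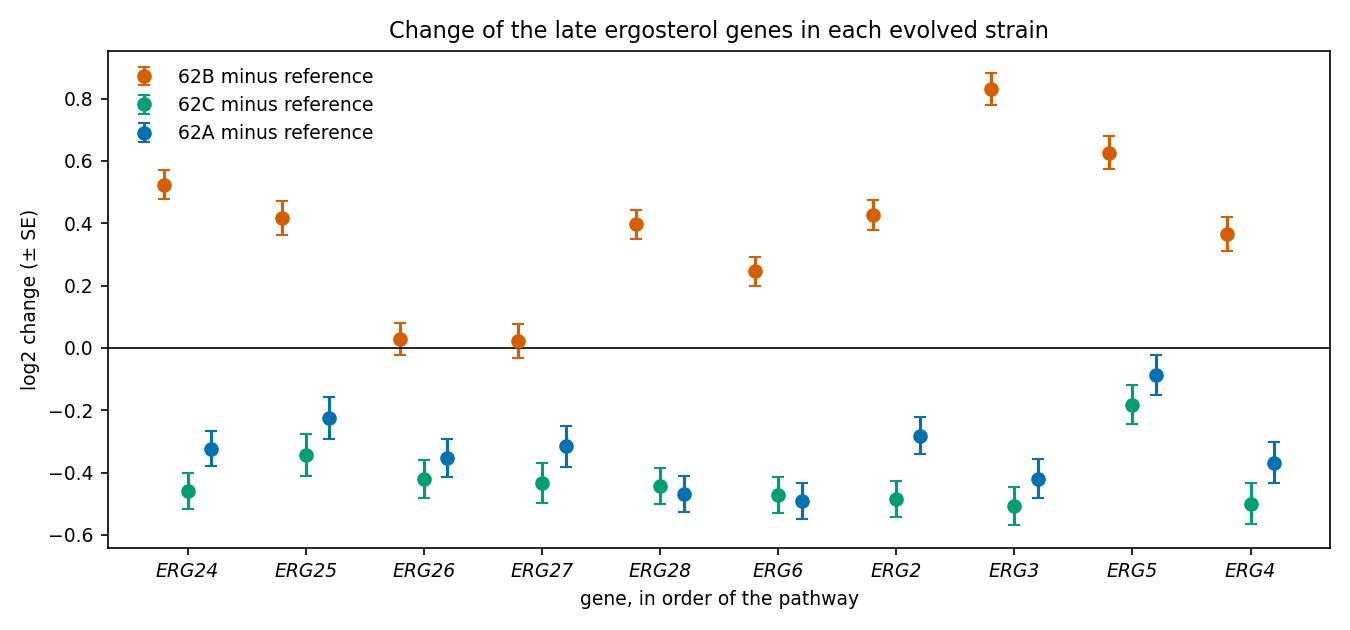
Log2 change against the reference for each late ergosterol gene in 62B, 62C and 62A, with bars of 1 standard error of the limma fit. In 62B the changes run from 0.02 (ERG27) to 0.83 (ERG3), in 62C from −0.51 (ERG3) to −0.18 (ERG5) and in 62A from −0.49 (ERG6) to −0.09 (ERG5).

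The strains were next set against each other, which leaves the reference arrays out of the estimated difference. Each of the 10 genes was higher in 62B than in 62C, with a median log2 difference of 0.82 and a range from 0.45 (ERG26) to 1.34 ± 0.06 (ERG3, 2.53-fold). All 10 passed the threshold, with limma adjusted p from 9.85e-07 to 0.000860, against 19.5% of all tested genes that were higher in 62B at this threshold. Each of the 10 was also higher in 62B than in 62A, with a median of 0.72 and a range from 0.34 (ERG27) to 1.25 ± 0.06 (ERG3, 2.38-fold). All 10 passed, with limma adjusted p from 4.16e-06 to 0.00797, against 9.38% of tested genes. The difference of ERG27 between 62B and 62A missed the threshold without the first 62B array (limma adjusted p = 0.0727) and without the second (0.0643). For all 10 genes both 62B arrays lay above the 62C array and above the 62A array, as they did for 50.8% and 49.2% of all tested genes. Ranked from high to low among the 5449 genes, the members held places 5 to 170 in 62B minus 62C and places 5 to 191 in 62B minus 62A, and ERG3 held the first of these places in both. ERG26 and ERG27, whose 62B arrays overlapped the reference, had the smallest of the 10 differences in both comparisons.

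**Figure D3:**
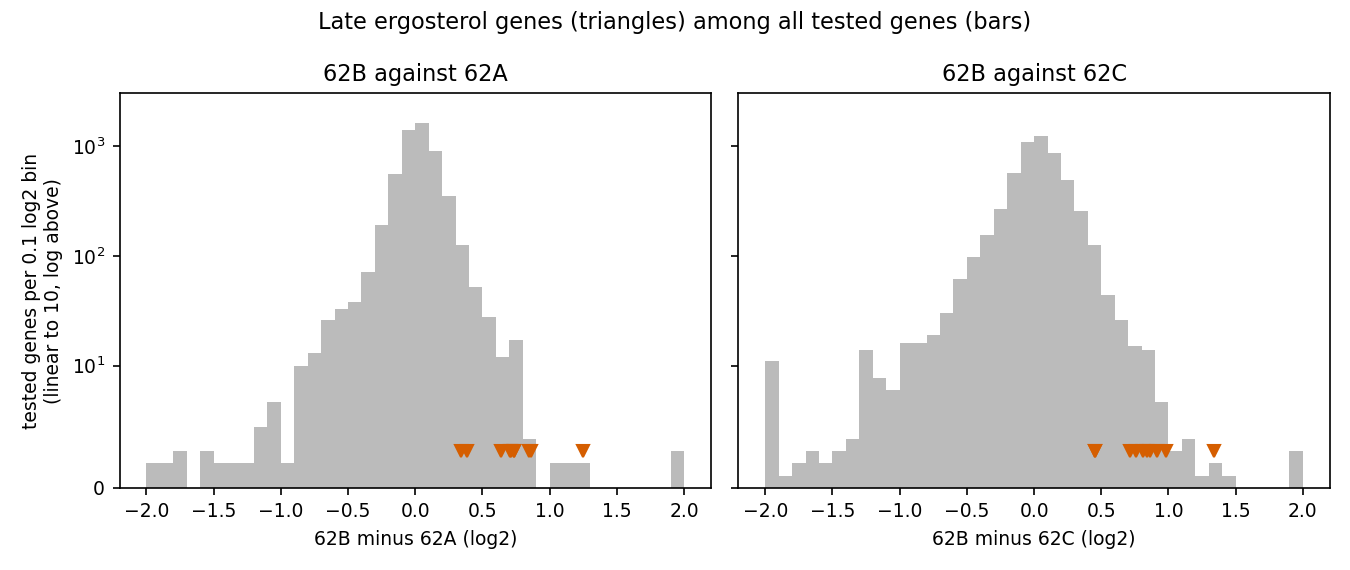
Distribution of the log2 difference between strains over all 5449 tested genes (bars, 0.1-wide bins, values beyond 2 or −2 collected in the end bins, vertical axis linear to 10 and logarithmic above) with the 10 late ergosterol genes as triangles. All 10 triangles lie right of 0, from 0.34 to 1.25 for 62B minus 62A and from 0.45 to 1.34 for 62B minus 62C.

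Between 62C and 62A the late genes showed no difference that passed. The level was lower in 62C for 8 of the 10 genes, against 51.2% of all tested genes, and the median log2 difference was −0.11. In limma 0 of 10 passed the threshold, 1 of 10 had an unadjusted p under 0.05 and 2.42% of all tested genes were called in either direction. That one was ERG2 (−0.20 ± 0.07, 95% interval −0.35 to −0.05, limma adjusted p = 0.183). ERG28 and ERG6 were the 2 genes above 0, at 0.03 and 0.02, and their sign turned under quantile normalization. The intervals do not show that both strains had equal levels: that of ERG4, for example, ran from −0.30 to 0.04. For 8 of the 10 genes the levels stood in the order 62B, reference, then 62C and 62A. In that order 62C and 62A were not separated for any gene, nor were 62A and the reference for ERG5.

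The evolved strains were also taken as 1 class, with each strain counted as 1 sample. This averages the changes in 62B with those in 62C and 62A. The members' median log2 change was −0.14, and 0 of 10 passed in limma or had an unadjusted p under 0.05 (limma adjusted p from 0.309 to 0.967). Of all tested genes 4.75% were called in either direction, so 0 of 10 is near the share of all genes. The standard errors of the members, 0.14 to 0.42, were large beside those of single strains (0.05 to 0.07) because they hold the spread between strains. ERG3, with the largest rise in 62B, had a class change of −0.03 ± 0.42.

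The upstream part of the pathway was described through lists of genes that were set with earlier results of these data known. In 62C and 62A most of these genes fell. Of the 9 genes from acetyl-CoA to farnesyl diphosphate, 7 fell in 62C (median −0.47) and 7 in 62A (median −0.36), and 0 rose in either. Of the 4 genes from squalene synthase to the lanosterol demethylase, all 4 fell in 62C (median −0.53) and in 62A (median −0.36). In 62B the mevalonate part gave a mixed picture, in which 2 of 9 rose, 3 fell and the median was 0.06. In the squalene to lanosterol part 3 of 4 rose in 62B, with a median of 0.22 beside 0.41 for the late genes. Without either 62B array 1 of 9 and 1 of 4 rose. The medians of the lists were not tested against each other. Of all tested genes, 20.1% rose and 21.3% fell in 62B, so the 2 rises among 9 mevalonate genes are near that share. In 62C 14.7% of all tested genes rose and 23.3% fell, and in 62A 546 of 5449 rose and 14.9% fell.

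ERG10, the thiolase of the first step, fell in all 3 strains (−0.29 ± 0.05 in 62B, −0.92 ± 0.06 in 62C and −0.80 ± 0.06 in 62A), unlike any late gene. The mevalonate kinase ERG12 and the isomerase IDI1 also fell in 62B, by 0.31 and 0.30 on the log2 scale. HMG2, 1 of the 2 HMG-CoA reductases, rose in 62B (0.33 ± 0.05), and its changes were −0.0029 in 62C and 0.04 in 62A. The phosphomevalonate kinase ERG8 rose in 62B too (0.19), but missed the threshold without the first or second 62B array (limma adjusted p = 0.104 and 0.0879). ERG11, the lanosterol demethylase just ahead of the late branch, rose in 62B (0.35 ± 0.06, limma adjusted p = 0.00109) and fell in 62C (−0.55 ± 0.07) and 62A (−0.31 ± 0.07). The squalene synthase ERG9 and the lanosterol synthase ERG7 rose by 0.22 each in 62B, where both calls were lost without the first 62B array (limma adjusted p = 0.0511 for ERG9 and 0.0574 for ERG7) and without the second (0.0756 and 0.0922). ERG1, the squalene epoxidase, had a change of 0.12 ± 0.09 in 62B that did not pass (limma adjusted p = 0.329) and fell in 62C and 62A, by 0.63 and 0.48.

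**Figure D4:**
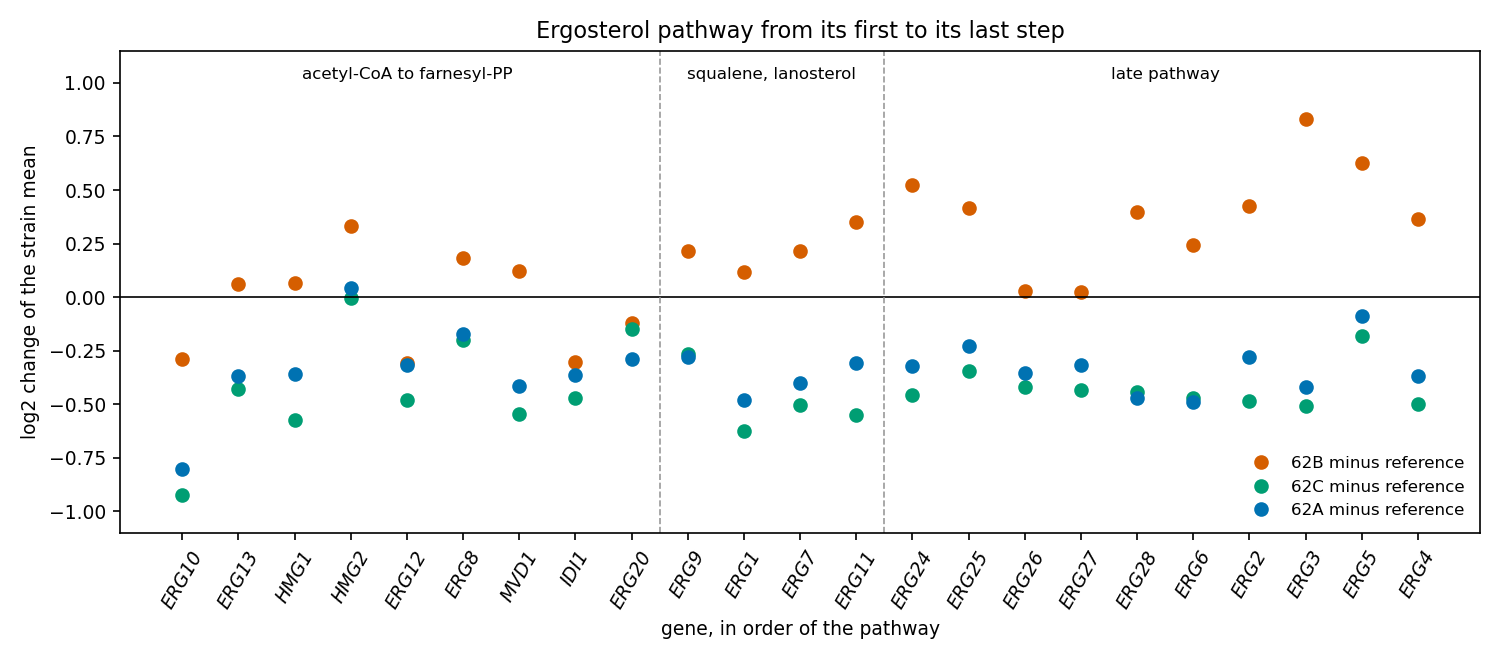
Log2 change of the strain mean against the reference mean for 23 ergosterol genes in pathway order, in 62B, 62C and 62A; dashed lines divide the mevalonate part, the squalene to lanosterol part and the late part. The 62C and 62A points are below 0 almost throughout (HMG2 in 62A is at 0.04), while the 62B points run from −0.31 (ERG12) to 0.33 (HMG2) in the first part and from 0.02 to 0.83 in the late part.

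Several late enzymes depend on electrons carried by other proteins, and these partners were measured on the same arrays. NCP1, the reductase that supplies the P450 enzymes Erg11 and Erg5, rose in 62B by 0.60 ± 0.06 (limma adjusted p = 6.72e-05), fell in 62C (−0.23 ± 0.07, limma adjusted p = 0.0322) and had a change of −0.19 ± 0.07 in 62A that did not pass (limma adjusted p = 0.0876, and 0.0421 with a trended, robust prior). CYB5, the cytochrome b5 that serves Erg3, measured 9.64 and 9.61 in 62B, 8.50 in 62C, 8.87 in 62A, and 9.29 and 9.20 in the reference. It rose in 62B (0.38 ± 0.05) and fell in 62C (−0.75 ± 0.06) and 62A (−0.37 ± 0.06). ERG29, required for ergosterol synthesis, rose in 62B (0.53 ± 0.05) and fell in 62C (−0.44 ± 0.06) and 62A (−0.29 ± 0.06). CBR1, the NADH-dependent reductase of cytochrome b5, had changes of 0.11 in 62B, −0.12 in 62C and −0.10 in 62A that did not pass. It passed in 62B under quantile normalization (limma adjusted p = 0.0382) and without the second reference array (0.0321), and in 62C without the first reference array (0.0413). DAP1, a heme-binding helper of Erg11, rose in 62B (0.17), a call that was lost without the first 62B array (limma adjusted p = 0.0881), without the second (0.268) and without the first reference array (0.094).

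Other membrane enzymes that use oxygen, and the heme synthesis genes, were counted in the same way. Of the fatty acid desaturase OLE1 and the sphingolipid hydroxylases SCS7 and SUR2, 0 of 3 changed in 62C or 62A. In 62B SUR2 rose (0.20 ± 0.05), a call lost without the first 62B array (limma adjusted p = 0.139), while OLE1 and SCS7 had changes of 0.08 and −0.13 that did not pass. OLE1 passed under quantile normalization (0.16, limma adjusted p = 0.0122) and SCS7 without the second reference array (−0.18, limma adjusted p = 0.0254). Of 8 heme synthesis genes, 1 rose and 1 fell in 62B, 1 rose and 1 fell in 62C, and 1 rose and 2 fell in 62A. Among all tested genes 20.1% rose and 21.3% fell in 62B, 14.7% rose and 23.3% fell in 62C, and 546 of 5449 rose and 14.9% fell in 62A. Without either 62B array 0 heme genes fell in 62A or in 62C, and without the second reference array 0 fell in 62C. Without the first reference array 2 fell in 62C. In 62B, 0 fell without the first 62B array and 0 rose without the second. The ferrochelatase HEM15, the last enzyme of heme synthesis, moved the other way from most late genes: it fell in 62B (−0.26 ± 0.06) and rose in 62C (0.52 ± 0.07) and 62A (0.39 ± 0.07). The fall of HEM15 in 62B missed the threshold without the first 62B array (limma adjusted p = 0.0799).

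Upc2 and Ecm22 sense sterols and activate the genes of the pathway. UPC2 measured 6.31 and 6.27 in 62B, 5.95 in 62C, 5.98 in 62A, and 6.10 and 6.17 in the reference. Its changes were 0.16 ± 0.05 in 62B and −0.18 ± 0.06 in 62C, both past the threshold (limma adjusted p = 0.0311 and 0.0441), and −0.15 ± 0.06 in 62A, which did not pass, though it did without the first reference array (limma adjusted p = 0.0318). The UPC2 call in 62B was lost without the first 62B array (limma adjusted p = 0.216), the second (0.129) or the first reference array (0.0726), and that in 62C without either 62B array (0.105 in both cases) or the second reference array (0.0745). Under median centring the 62C call of UPC2 was lost too (limma adjusted p = 0.0521). ECM22 fell in 62B (−0.16 ± 0.05), a call lost under quantile normalization (limma adjusted p = 0.0547) and without the first 62B array (0.0503), the second (0.345) or the second reference array (0.0586). Its changes in 62C and 62A were 0.05 and −0.10 and did not pass. HAP1, a heme-responsive activator, had changes of −0.15 in 62B, −0.18 in 62C and −0.09 in 62A, with 0 of 3 past the threshold; in 62B it passed in limma without the first reference array (adjusted p = 0.0390), under median centring (0.0363), under quantile normalization (0.0412) and with a trended, robust prior (0.0444), and in 62C without the first reference array (0.0433).

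ROX1, a heme-induced repressor of hypoxic genes, fell in all 3 strains (−0.44 ± 0.06 in 62B, −0.51 ± 0.07 in 62C and −0.38 ± 0.07 in 62A), and in the class as a whole (−0.44 ± 0.06, limma adjusted p = 0.0364). That class call was lost without either reference array, where 0 genes of 5449 passed in limma. MGA2, a membrane-bound activator of OLE1, rose in 62B (0.60 ± 0.05), and its changes of −0.0082 in 62C and 0.08 in 62A did not pass. Over the 13 listed regulators, 3 rose and 3 fell in 62B, 5 fell in 62C and 3 fell in 62A. The shares of all tested genes were 20.1% and 21.3% for rises and falls in 62B, 23.3% for falls in 62C and 14.9% for falls in 62A. Without either 62B array the counts were 1 rise in 62B, 3 falls in 62C and 1 fall in 62A, and without the first reference array 5 regulators fell in 62B.

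Among 11 genes of sterol esters, uptake and export, 7 rose and 1 fell in 62B, 2 rose and 5 fell in 62C, and 2 rose and 4 fell in 62A. Among all tested genes 20.1% rose and 21.3% fell in 62B, 14.7% rose and 23.3% fell in 62C, and 546 of 5449 rose and 14.9% fell in 62A. Without the first 62B array 4 of the 11 rose in 62B. ATF2, an acetyltransferase that acts on sterols and alcohols, had the largest change: it rose in 62B by 1.29 ± 0.05 (2.44-fold, limma adjusted p = 5.89e-07) and fell in 62C (−0.79 ± 0.07) and 62A (−0.63 ± 0.07). PRY1, a secreted sterol-binding protein, rose in all 3 strains (0.51 in 62B, 1.24 in 62C and 0.58 in 62A). AUS1, a sterol importer, fell in 62B (−0.32) and 62C (−0.31).

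**Figure D5:**
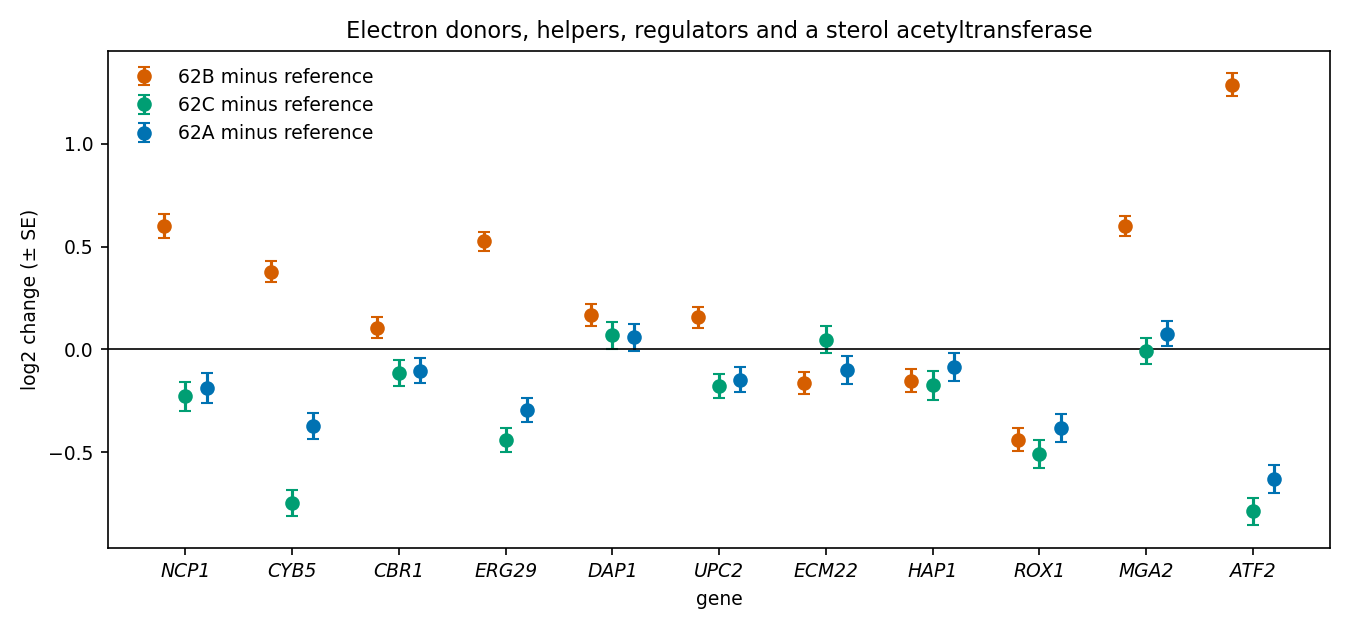
Log2 change against the reference in 62B, 62C and 62A, with bars of 1 standard error, for electron donors and helpers (NCP1, CYB5, CBR1, ERG29, DAP1), regulators (UPC2, ECM22, HAP1, ROX1, MGA2) and the sterol acetyltransferase gene ATF2. NCP1, CYB5, ERG29 and ATF2 lie above 0 in 62B and below 0 in 62C and 62A, while ROX1 lies at −0.51 to −0.38 in the 3 strains.

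The 5 genes most like the late branch were found by the distance between their 3 strain changes and the members' medians, over 5230 genes above background on all arrays; these changes share the reference arrays. The nearest was ARE2, the main sterol acyltransferase, with log2 changes of 0.39 in 62B, −0.47 in 62C and −0.35 in 62A (distance 0.0221). ERG11 (0.119) and ERG29 (0.127) followed, and then PRY3, a cell wall protein (0.179), and MIG3, a transcriptional regulator (0.191). Among the members themselves ERG2 (0.0693) and ERG4 (0.0703) lay closest to their median pattern. ERG3 (0.437), ERG5 (0.429), ERG27 (0.385) and ERG26 (0.378) lay farthest.

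The excess of the 3' over the 5' probe set in control genes, a measure of RNA quality, differed between arrays. As an average over 8 control genes this excess was largest in 62B and smallest in 62C, with 62A between the 2 reference arrays. On the log2 scale it was 2.01 and 2.05 in 62B, 1.73 in 62C, 1.89 in 62A, and 1.90 and 1.84 in the reference. The medians of the 10 late genes were 10.53 and 10.54 in 62B, 9.66 in 62C, 9.69 in 62A, and 10.11 and 10.07 in the reference. For the separate ACT1 control the excess was 1.58 and 1.73 in 62B, 1.41 in 62C, 1.49 in 62A, and 1.40 and 1.27 in the reference. It was again largest in 62B, but here 62C and 62A lay above both reference arrays. The a-specific mating genes also differed by strain, with medians of 8.36 and 8.48 in 62B, 9.63 in 62C, 9.74 in 62A, and 9.77 and 9.68 in the reference. Their part in the sterol gene levels was not tested.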

How the data were processed

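The deposited log2 expression values of 6 Affymetrix yeast arrays were used as given; per the submitters' processing notes, the authors applied RMA through affy. Its version and the set of arrays normalized together are not known here. Scanner files were not used, so other background corrections were not tried. Of 10928 probe sets, 5498 matched 1 S. cerevisiae gene each through the RefSeq gene table (R64), and 1746 belonged to another species. Where a gene had several probe sets (47 genes), that with the highest mean was kept, which left 5449 genes. Background was the 95th percentile of the other species' probe sets, 5.07. The number of arrays limits the precision; no read depth applies. Of the table's columns 0 were left unused.

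The models were fitted in R 4.3.3 by lmFit and eBayes of limma 3.58.1, with Benjamini-Hochberg adjustment at 0.05: a fit with 1 term per strain, and a class fit of 3 evolved strains, with the 62B arrays averaged, against 2 reference arrays. In simulated arrays 50 of 50 genes changed by 0.3 in 62B against reference were recovered, as were 43 of 50 in 62A against reference, with 16 and 6 false calls among 5449 genes. All simulated arrays were drawn around the reference means with the fitted spread, and fewer genes were changed than these comparisons called in the real arrays. The simulation therefore could not test whether 62C and 62A vary like the 62B and reference pairs. The members and lists were chosen with earlier results of these data known. Named genes were the 10 members, per list the 2 genes highest and the 2 lowest in 62B plus 9 fixed ones (ERG10, ERG11, ERG1, NCP1, CYB5, UPC2, ECM22, HAP1, ROX1), and the 5 most alike genes. Alternatives changed the prior, normalization, probe rule, dim-gene filter, arrays and blocks.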

Additional observations from a re-analysis of the deposited data

Results flagged for a closer look

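The strain effects on the late ergosterol genes differed from each other by a direct test. The log2 difference of 62B minus 62C was 1.34 for ERG3, 0.98 for ERG24, 0.91 for ERG2, 0.87 for ERG4, 0.84 for ERG28, 0.81 for ERG5, 0.76 for ERG25, 0.72 for ERG6, 0.46 for ERG27 and 0.45 for ERG26. The log2 difference of 62B minus 62A was 1.25 for ERG3, 0.86 for ERG28, 0.85 for ERG24, 0.74 for ERG6, 0.73 for ERG4, 0.71 for ERG5, 0.71 for ERG2, 0.64 for ERG25, 0.38 for ERG26 and 0.34 for ERG27. Each of these 20 differences passed limma with adjustment over all 5449 genes, and 0 of 10 passed between 62C and 62A. Of all tested genes, 19.5% were called higher in 62B than in 62C and 9.38% higher in 62B than in 62A. Only 2.42% were called in either direction between 62C and 62A, so 0 of 10 there is near the share of all genes. Both 62B arrays showed the direction in every case, as they did for 50.8% of all tested genes against 62C and 49.2% against 62A. Strains 62C and 62A were measured on only 1 array each.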

How the results depend on the processing

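Counts of late genes called stayed within 1.5 times of those reported in all 160 recomputed cases. These include the cases where both counts were 0. The other counts, 8 to 10 of 10, could not rise past 1.5 times, so only a fall could have shown. Leaving out 1 array at a time gave 7 to 8 higher in 62B, 9 to 10 lower in 62C, 8 to 9 lower in 62A, 9 to 10 higher in 62B than in 62A and 10 higher in 62B than in 62C. Members' medians ran from 0.38 to 0.43 in 62B, −0.46 to −0.43 in 62C and −0.37 to −0.32 in 62A over the alternatives. Of the other lists' counts, 76 of 1440 moved by more than 1.5 times. Over all genes the calls ran from 827 to 2053 in 62A (1357 reported), 1213 to 2606 in 62B (2255), 342 to 1493 for 62B against 62A (880), 959 to 2478 for 62B against 62C (1829), 19 to 432 for 62C against 62A (132) and 0 to 658 for the class (259, and 0 without either reference array).

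Single late genes lost a call, with limma adjusted p, as follows: ERG25 in 62A without either 62B array (0.065), ERG6 in 62B without the second 62B array (0.0548), ERG27 in 62B against 62A without the first or second 62B array (0.0727 and 0.0643), and ERG5 in 62C without either 62B array (0.0981), without the first reference array (0.0745), under quantile normalization (0.0678) and under median centring (0.0861). The deviations within the 62B pair and within the reference pair had a correlation of −0.06 over genes. With 1 pair each, this cannot settle whether arrays of equal number belong together. With the replicate number as a block no count of late genes moved by over 1.5 times, and class changes turned positive for the members' median (0.07), ERG24 (0.16), ERG25 (0.13), ERG28 (0.052), ERG2 (0.10), ERG3 (0.30) and ERG4 (0.032), while HRD1 in 62A turned to −0.0011 and HEM14 in 62C to 0.0153. Under this block UPC2 in 62C (limma adjusted p = 0.0590) and TUP1 in 62A (0.0588) lost their calls, while HAP1 in 62B (0.0305) and 62C (0.0398), SCS7 in 62B (0.0439) and NCP1 in 62A (0.0200) gained one. Other signs turned without passing the threshold: under quantile normalization HMG2 (0.0209), HEM14 (0.0051) and MGA2 (0.0226) in 62C, and ERG28 (−0.0261) and ERG6 (−0.0227) in 62C minus 62A; under median centring HMG2 (0.0221) and MGA2 (0.0168) in 62C; with strain as a random block ERG3 in the class (0.0189); with evolved arrays as separate samples ERG24 (0.0665), ERG25 (0.0656), ERG2 (0.0219) and ERG3 (0.18) in the class. Leaving out 1 array, log2 changes crossed 0 for ERG26 (−0.0027 to 0.061), ERG27 (−0.0369 to 0.0808), ERG1 (−0.0137 to 0.25) and HEM14 (−0.0126 to 0.0950) in 62B, for SCS7 (−0.0901 to 0.0098), HMG2 (−0.0058 to 0.00014), HEM14 (−0.0918 to 0.0152) and MGA2 (−0.0294 to 0.0131) in 62C, and for SCS7 (−0.0856 to 0.0143) and HRD1 (−0.0180 to 0.0603) in 62A. In the class they crossed 0 for the members' median (−0.15 to 0.0356), ERG24 (−0.0904 to 0.10), ERG25 (−0.0721 to 0.0947), ERG2 (−0.13 to 0.0728) and ERG3 (−0.0603 to 0.21). Class calls over all genes were 6 without 62A, 99 without 62C and 21 with strain as a random block. The cause was not tested. With 2 or 1 arrays per strain, no array can be judged an outlier within its group, and without scanner files slide and background correction were not examined.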
